A study of Homo sapiens with 6 samples.

Results

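The genes described are the core and linker histone genes measured by RNA sequencing in PC-9, a human line of lung adenocarcinoma that carries an activating EGFR mutation. Members were taken by symbol from the 26485 symbols of the count table. Symbols beginning with HIST1H, HIST2H, HIST3H or HIST4H gave 70 clustered, replication-dependent genes. Symbols beginning with H2AF or H3F3, together with H1F0 and H1FX, gave 14 variant, replication-independent genes, so that 84 genes were members in all. The pseudogene rows HIST2H2BA, HIST2H2BC, HIST1H2APS1 and H3F3AP4 and the antisense row H1FX-AS1 were left out. All members were protein-coding genes matched by symbol in GENCODE release 29.

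The cells carried either a stable knockdown by a short hairpin RNA (shRNA) to IFITM3, an interferon-induced membrane protein (shIFITM3, 3 samples), or a control construct (shControl, 3 samples). The labels call the samples of each condition biological replicates. The control is named as a hairpin in the titles and as ShEV in the count table, and which of the names applies is not settled here. The number of hairpins or clones is not known from the sources used here, and no drug is named for the samples. All 6 libraries were made with a stranded kit that selects polyadenylated messenger RNA. Total counts were 21965506 to 23852371 in the shIFITM3 samples and 21342028 to 77228760 in the shControl samples. IFITM3 itself had 10.4, 12.9 and 9.75 CPM (counts scaled to library size) in shIFITM3 samples 1, 2 and 3, against 57.0, 60.5 and 62.8 CPM in shControl samples 1, 2 and 3. On the log2 scale IFITM3 changed by -2.45 (SE 0.0794, edgeR adjusted p = 5.97e-18).

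Histones package DNA into nucleosomes, in which pairs of the core histones H2A, H2B, H3 and H4 form a spool and a linker histone of the H1 family binds where DNA enters and leaves. The clustered genes supply most histone protein during DNA replication. Their main transcripts have no poly(A) tail and end just after a conserved stem-loop, which is bound by SLBP and cut by a complex that contains the U7 small nuclear RNA. Some clustered genes also make longer, polyadenylated transcripts that run past the stem-loop, a form known from differentiating and non-cycling cells. Variant histone genes lie outside the clusters, are transcribed throughout the cell cycle and mostly give ordinary polyadenylated messages. Poly(A) selection therefore keeps variant transcripts and the polyadenylated part of the clustered ones. The total output of the clustered genes was not measured.

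The stem-loop was searched for in the annotated transcripts of every gene, because it separates the part of a clustered transcript that ends there from the part that reads on. It was found in 32 of the 70 clustered genes and in H2AFX alone of the 14 variant genes, which is a known exception among variants in carrying it. Of all 19669 genes with a protein-coding transcript, 50 held a match (0.254%), and 33 of these were members. In 23 of the 32 clustered genes an annotated transcript extended at least 100 bases past the site. All 33 clustered genes without annotated sequence beyond the stop codon, among them HIST1H1C and HIST1H2BK, could give no match in this search. The sites of the tested genes that were higher in shIFITM3 cells and had a match are given first, followed by 2 that were not called, as 5 flanking bases in lower case and the 16-base stem-loop in capitals, from the GENCODE 29 transcripts.
H2AFX, chr11:119094898-119094913, minus strand: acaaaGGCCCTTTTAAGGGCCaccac
HIST1H2AC, chr6:26124669-26124684, plus strand: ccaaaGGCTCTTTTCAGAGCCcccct
HIST1H2BD, chr6:26158587-26158602, plus strand: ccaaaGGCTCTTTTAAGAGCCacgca
HIST2H2BE, chr1:149886188-149886203, minus strand: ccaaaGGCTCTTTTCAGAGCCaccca
HIST1H3E, chr6:26225596-26225611, plus strand: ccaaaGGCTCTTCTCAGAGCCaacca
HIST1H2BC, chr6:26123472-26123487, minus strand: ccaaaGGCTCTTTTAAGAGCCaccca
HIST3H2A, chr1:228457369-228457384, minus strand: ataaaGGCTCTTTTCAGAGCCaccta
Coordinates are of the 16-base core on GRCh38. The annotated transcript that holds the site went on for up to 1044 bases after it in H2AFX, 1128 in HIST1H2AC, 1729 in HIST2H2BE and 1862 in HIST1H3E. It went on for 39 in HIST1H2BD, 116 in HIST1H2BC and 390 in HIST3H2A. In HIST1H2BD and HIST1H2BC that transcript has 496 and 571 bases, while the annotated exons cover 871 and 834. Exons outside it are therefore annotated, and the 39 and 116 bases do not describe them. The 33 members with a match shared 7 distinct cores. HIST1H2AC, HIST2H2BE and HIST3H2A had the same core letters, and HIST1H2BD and HIST1H2BC had another in common.

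Among clustered genes, 4 of the 5 with the highest CPM rose in shIFITM3 cells: HIST1H1C 2.46-fold, HIST2H2BE 2.19-fold, HIST1H2AC 2.16-fold and HIST1H2BD 2.05-fold. The gene with the highest CPM, HIST1H2BK, was nearly level. Of 70 clustered genes, 15 passed the filter on low counts and were tested, with 5 called higher and 1 called lower at an edgeR adjusted p under 0.05. The remaining 9 tested genes were not called. Across all 14018 tested genes, 27.7% were called higher and 28.4% lower, 56.1% in either direction, so that a call by itself sets no histone gene apart. The median log2 fold change was 0.40 over the 15 clustered genes and -6.33e-05 over all tested genes. The clustered median is the value of HIST2H2BF, named here for that reason. HIST2H2BF had 4 to 20 counts per sample, overlapped between the groups and was not called (SE 0.555, edgeR adjusted p = 0.561). CPM did not overlap between the groups for 7 of the 15, beside 60.9% of all tested genes.

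**Figure D1:**
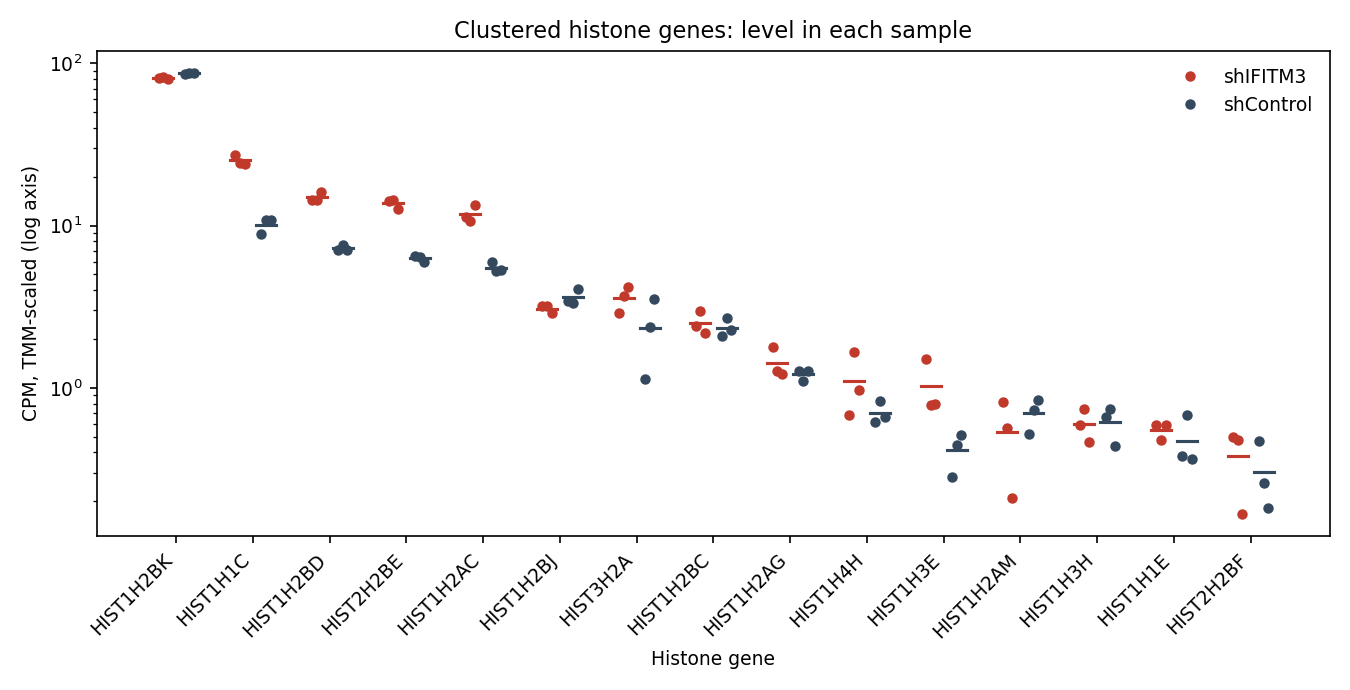
Level of each of the 15 tested clustered histone genes in CPM on a log axis. Each point is a sample, short lines are the means of 3 samples, and shIFITM3 stands left of shControl. HIST1H1C, HIST1H2BD, HIST2H2BE and HIST1H2AC lie in separate ranges in the groups, while HIST1H2BK, at 80.3 to 87.6 CPM, differs little.

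HIST1H1C encodes a linker histone of the H1 family and lies in the large histone cluster of chromosome 6 (26055787 to 26056428, minus strand, GRCh38). It had 27.3, 24.4 and 24.1 CPM in shIFITM3 samples 1, 2 and 3, against 8.86, 10.8 and 10.8 CPM in shControl samples 1, 2 and 3. Every shIFITM3 sample was well above every shControl sample. Its mean was 25.3 ± 1.77 CPM in shIFITM3 cells and 10.2 ± 1.12 CPM in shControl cells (SD, n = 3 each). The log2 fold change of 1.30 (SE 0.0932) had an edgeR adjusted p of 2.24e-11.

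HIST1H1E, another linker histone gene of the cluster, was chosen for mention after its values were seen. It was close to the filter, at 0.552 ± 0.0635 CPM in shIFITM3 cells and 0.472 ± 0.176 CPM in shControl cells (SD, n = 3 each). Its log2 fold change of 0.09 (SE 0.426) was not called (edgeR adjusted p = 0.868). Whether HIST1H1C and HIST1H1E differ in their response was not tested.

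HIST2H2BE encodes an H2B and lies outside the chromosome 6 cluster, on chromosome 1 (149884459 to 149886652, minus strand). It had 14.2, 14.5 and 12.7 CPM in shIFITM3 samples 1, 2 and 3, against 6.46, 6.42 and 5.95 CPM in shControl samples 1, 2 and 3. The groups did not overlap, and the spread within each was small beside the gap. The log2 fold change was 1.13 (SE 0.109, edgeR adjusted p = 3.94e-09).

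HIST1H2BD, an H2B gene of the chromosome 6 cluster (26158146 to 26171349, plus strand), had 14.4, 14.3 and 16.1 CPM in shIFITM3 samples 1, 2 and 3. In shControl samples 1, 2 and 3 it had 7.02, 7.64 and 7.08 CPM. Again no shIFITM3 value came near a control value. This gave 1.03 on the log2 scale (SE 0.104, edgeR adjusted p = 8.36e-09).

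HIST1H2AC encodes an H2A (chromosome 6, 26124145 to 26139116, plus strand). It had 11.4, 10.6 and 13.3 CPM in shIFITM3 samples 1, 2 and 3, against 5.99, 5.24 and 5.33 CPM in shControl samples 1, 2 and 3. Its log2 fold change was 1.11 (SE 0.123, edgeR adjusted p = 4.4e-08), with no overlap between the groups.

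HIST1H3E, an H3 gene, was the fifth clustered gene called higher and the lowest of them in CPM. It had 33, 18 and 19 counts in shIFITM3 samples 1, 2 and 3 (1.5, 0.783 and 0.795 CPM). In shControl samples 1, 2 and 3 it had 6, 34 and 14 counts (0.283, 0.442 and 0.511 CPM). The groups did not overlap in CPM, but shIFITM3 sample 1 stood well above the other two. HIST1H3E changed by 1.26 on the log2 scale (SE 0.405, edgeR adjusted p = 0.0109). Without shIFITM3 sample 1 it was 0.89 and not called (edgeR adjusted p = 0.118).

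HIST1H2BK, an H2B gene that is known for polyadenylated transcripts, was the only clustered gene called lower, and by little. It had 81.1, 82.7 and 80.3 CPM in shIFITM3 samples 1, 2 and 3, against 86.5, 87.6 and 87.2 CPM in shControl samples 1, 2 and 3. The groups did not overlap, and the log2 fold change was -0.10 (SE 0.0422, edgeR adjusted p = 0.0496). The call was lost in 11 of 15 alternative settings, which include leaving out any sample other than shIFITM3 sample 2 (edgeR adjusted p = 0.0612 to 0.134). In addition, 50.5% of the 75-base windows of its transcripts also occur in another gene, mostly H2BFS, so its reads may have been divided.

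HIST1H2BK held 47.4%, 48.8% and 48.2% of all counts on clustered genes in shIFITM3 samples 1, 2 and 3, against 66.1%, 63.4% and 64.6% in shControl samples 1, 2 and 3. All 70 clustered genes together had 171, 169.5 and 167 CPM in shIFITM3 samples, against 131, 138 and 135 CPM in shControl samples. With HIST1H2BK left out, the sums were 90.1, 86.9 and 86.3 CPM in shIFITM3 samples and 44.4, 50.5 and 47.9 CPM in shControl samples, a ratio of 1.84. Both sums are descriptions, since a few genes carry them.

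The other clustered genes named by level or p were not called. HIST1H2BJ, an H2B gene, had 3.18, 3.17 and 2.89 CPM in shIFITM3 samples, against 3.44, 3.35 and 4.05 CPM in shControl samples, with no overlap but a log2 fold change of only -0.22 (SE 0.183, edgeR adjusted p = 0.315). HIST3H2A, an H2A gene on chromosome 1, had 2.91, 3.70 and 4.18 CPM in shIFITM3 samples, against 1.13, 2.38 and 3.54 CPM in shControl samples. Its control samples were widely spread and overlapped the shIFITM3 samples. The log2 fold change of HIST3H2A, 0.59 (SE 0.261), had an edgeR adjusted p of 0.0597 and passed the threshold in 6 of 15 alternative settings, among them those without shIFITM3 sample 1 (0.72, adjusted p = 0.0429) or shControl sample 3 (0.91, adjusted p = 0.00659). HIST1H4H, the only H4 gene tested, had 0.60 as its log2 fold change (SE 0.369, adjusted p = 0.175 by edgeR), on 15 to 38 counts in shIFITM3 samples and 13 to 64 in shControl samples. HIST1H2AG had 0.23 (SE 0.295) and HIST1H2AM -0.43 (SE 0.439) on the log2 scale, neither called. HIST1H2AM shares 85.3% of its windows with HIST1H3J on the same strand, so reads of these genes cannot be told apart.

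By family, the tested genes were 2 of 6 clustered H1 genes, 4 of 17 H2A genes, 6 of 18 H2B genes, 2 of 14 H3 genes and 1 of 15 H4 genes. The genes called higher were 1 H1, 1 H2A, 2 H2B and 1 H3 gene. A list of 7 clustered genes known for polyadenylated transcripts (HIST1H1C, HIST1H2AC, HIST1H2BC, HIST1H2BD, HIST1H2BJ, HIST1H2BK and HIST2H2BE) was tested in full. The list was chosen with earlier results of these data known. Its genes called higher are among the clustered genes described above, so the list adds no separate support. In it, 4 were called higher and 1 lower, beside 27.7% and 28.4% of all tested genes, with a median log2 fold change of 1.03. These 7 genes held 89.9% to 91.0% of all clustered counts in shIFITM3 samples and 89.5% to 91.9% in shControl samples.

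Of the 55 clustered genes that were not tested, 15 had no count in any sample. The 55 had at most 44 counts and at most 0.801 CPM in a sample, reached in different genes and different samples. Their summed level was 7.91, 7.30 and 6.36 CPM in shIFITM3 samples 1, 2 and 3, against 5.28, 7.29 and 4.56 CPM in shControl samples 1, 2 and 3, with overlap between the groups. Of the 189 nonzero values among them, 151 were even numbers (79.9%), so counts may come in pairs and hold fewer independent molecules than they show. A count of 0 allows up to 3 counts, or 0.141 CPM in the shallowest library and 0.0390 CPM in that with most reads, for counting error only. Of the 15 genes without a count, 7 share at least 85% of their 75-base windows with another gene and 8 share none, HIST3H3 and the testis-expressed HIST1H2BA among the 8.

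Variant histone genes took far more reads than clustered ones and changed in both directions. H2AFX rose 1.91-fold, H2AFJ 1.51-fold, and the linker genes H1FX and H1F0 1.28-fold and 1.18-fold. H2AFZ fell by 21.3% and H2AFY fell by 22.8%. Of 14 variant genes, 10 were tested, with 5 called higher, 2 lower and 3 not called, beside the 27.7% higher and 28.4% lower among all tested genes. The median log2 fold change was 0.15, and CPM did not overlap between the groups for 8 of the 10, beside 60.9% of all tested genes. Summed over all 14, variants had 1967, 1948 and 1979 CPM in shIFITM3 samples, against 1915, 1922 and 1933 CPM in shControl samples, a ratio of 1.02. The sum holds nothing from H3F3A, which was listed at 0 in every sample and whose level cannot be read from these counts.

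**Figure D2:**
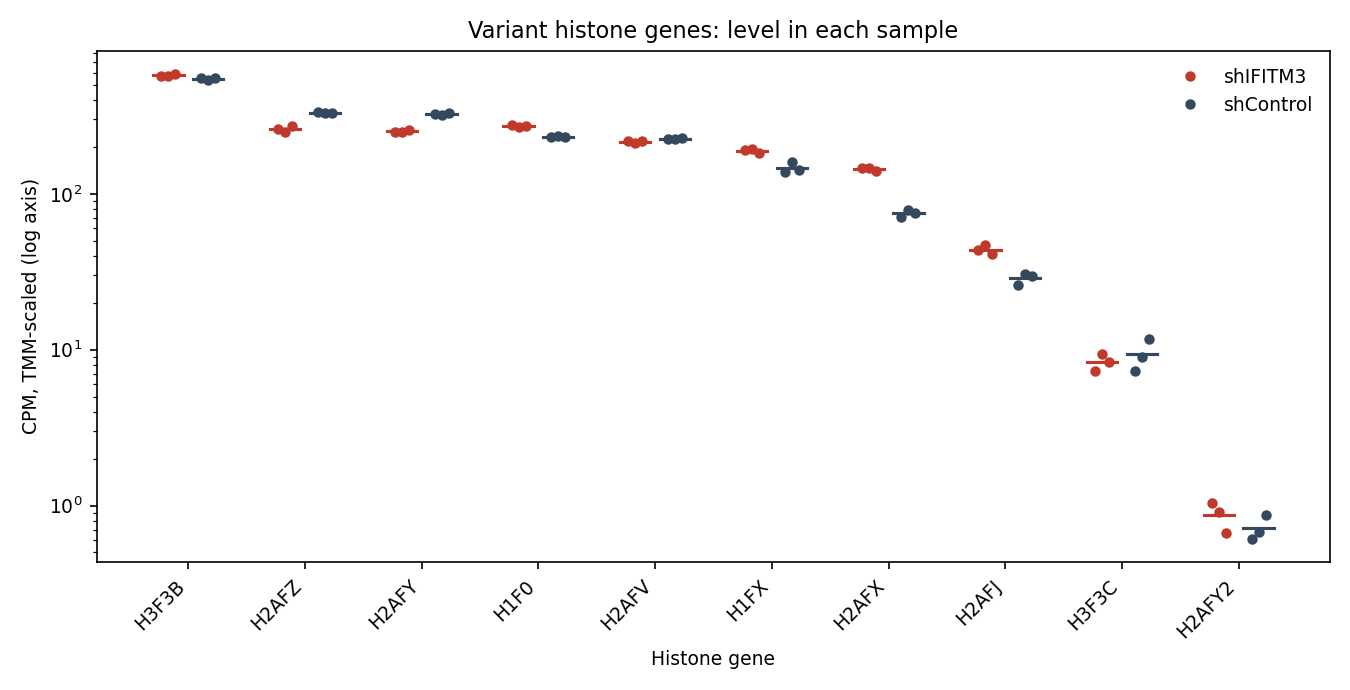
Level of each of the 10 tested variant histone genes in CPM on a log axis. Each point is a sample, short lines are means of 3 samples, and shIFITM3 stands left of shControl. H2AFX shows the widest gap, 139.6 to 148 CPM in shIFITM3 cells against 71.2 to 78.7 CPM in shControl cells, and H2AFZ and H2AFY are lower in shIFITM3 cells.

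H2AFX encodes the H2A variant that is phosphorylated around DNA double-strand breaks (chromosome 11, 119093854 to 119095467, minus strand). It had 147, 148 and 139.6 CPM in shIFITM3 samples 1, 2 and 3, against 71.2, 78.7 and 75.9 CPM in shControl samples 1, 2 and 3. The groups were far apart relative to their spread, at 145 ± 4.44 and 75.2 ± 3.79 CPM (SD, n = 3 each). H2AFX changed by 0.94 on the log2 scale (SE 0.0442, edgeR adjusted p = 9.06e-15), more than any other tested variant gene. Its annotated transcript runs past the stem-loop given above, and gene counts do not separate a form that ends there.

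H2AFJ encodes an H2A variant known to accumulate in senescent fibroblasts (chromosome 12, 14774383 to 14778002, plus strand). It had 43.7, 47.0 and 41.1 CPM in shIFITM3 samples 1, 2 and 3, against 26.1, 30.5 and 29.8 CPM in shControl samples 1, 2 and 3. No values overlapped, and the log2 fold change was 0.60 (SE 0.0675, edgeR adjusted p = 6.18e-08).

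The linker variants H1FX and H1F0 were both higher. H1FX had 189.9, 194 and 182 CPM in shIFITM3 samples, against 137, 159.8 and 142 CPM in shControl samples, with 0.36 as the log2 fold change (SE 0.0461, adjusted p = 4.58e-07 by edgeR). An exon of H1FX overlaps the antisense gene H1FX-AS1, which had under 2 CPM in every sample. H1F0, a linker histone known to accumulate in differentiated and resting cells, had 278, 269.8 and 274 CPM in shIFITM3 samples, against 231, 235 and 233 CPM in shControl samples. Its log2 fold change was 0.23 (SE 0.0321, edgeR adjusted p = 1.18e-06). Neither gene overlapped between the groups.

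H2AFZ and H2AFV encode the H2A.Z proteins, which mark promoters and enhancers. H2AFZ had 261, 248 and 272 CPM in shIFITM3 samples, against 337, 328 and 328 CPM in shControl samples. All shIFITM3 values were below all control values, with -0.35 as the log2 fold change (SE 0.0347, adjusted p = 8.39e-09 by edgeR). H2AFV had 218, 211 and 218 CPM in shIFITM3 samples, against 225, 223 and 229.7 CPM in shControl samples. These did not overlap either, but the log2 fold change of -0.07 (SE 0.0336) was not called (edgeR adjusted p = 0.0936).

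H2AFY encodes macroH2A, a large variant enriched on the inactive X chromosome and other silent chromatin. It had 250.5, 248 and 255 CPM in shIFITM3 samples, against 327, 319 and 331 CPM in shControl samples. The groups were well separated, with -0.37 as the log2 fold change (SE 0.0319, adjusted p = 5.66e-10 by edgeR). It overlaps C5orf66 on the opposite strand and shares 27.0% of its windows with other genes. H2AFY2, the second macroH2A gene, had only 0.876 ± 0.190 CPM in shIFITM3 cells and 0.721 ± 0.137 CPM in shControl cells (SD, n = 3 each), and its log2 fold change of 0.28 (SE 0.362) was not called.

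H3F3A and H3F3B encode the same replacement H3 protein, which is placed into chromatin outside replication. H3F3B had 571, 571 and 587 CPM in shIFITM3 samples, against 553, 539 and 551 CPM in shControl samples, the highest counts of any histone gene. The log2 fold change was 0.08 (SE 0.0282, edgeR adjusted p = 0.0270), and the call was lost in 5 of 15 alternative settings. Among these were the fits without shIFITM3 sample 3 (edgeR adjusted p = 0.129), shControl sample 2 (adjusted p = 0.101) or shControl sample 3 (adjusted p = 0.0620). H3F3A was listed at 0 in every sample, and 337 of its 3067 windows (11.0%) also occur in its processed pseudogene H3F3AP4. The row of H3F3AP4, named here for that shared sequence, had 48.2, 49.2 and 47.5 CPM in shIFITM3 samples, against 59.8, 51.2 and 53.2 CPM in shControl samples. H3F3AP4 had -0.17 as its log2 fold change (SE 0.0574, adjusted p = 0.0148 by edgeR). Neither the level nor the direction of H3F3A can be read from these counts. H3F3C, an H3 gene derived from H3F3B, had a log2 fold change of -0.17 (SE 0.141) and was not called. H2AFB1 and H2AFB3 also had no count, and 85.4% and 99.2% of their windows occur in another gene, so they are uncertain.

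**Figure D3:**
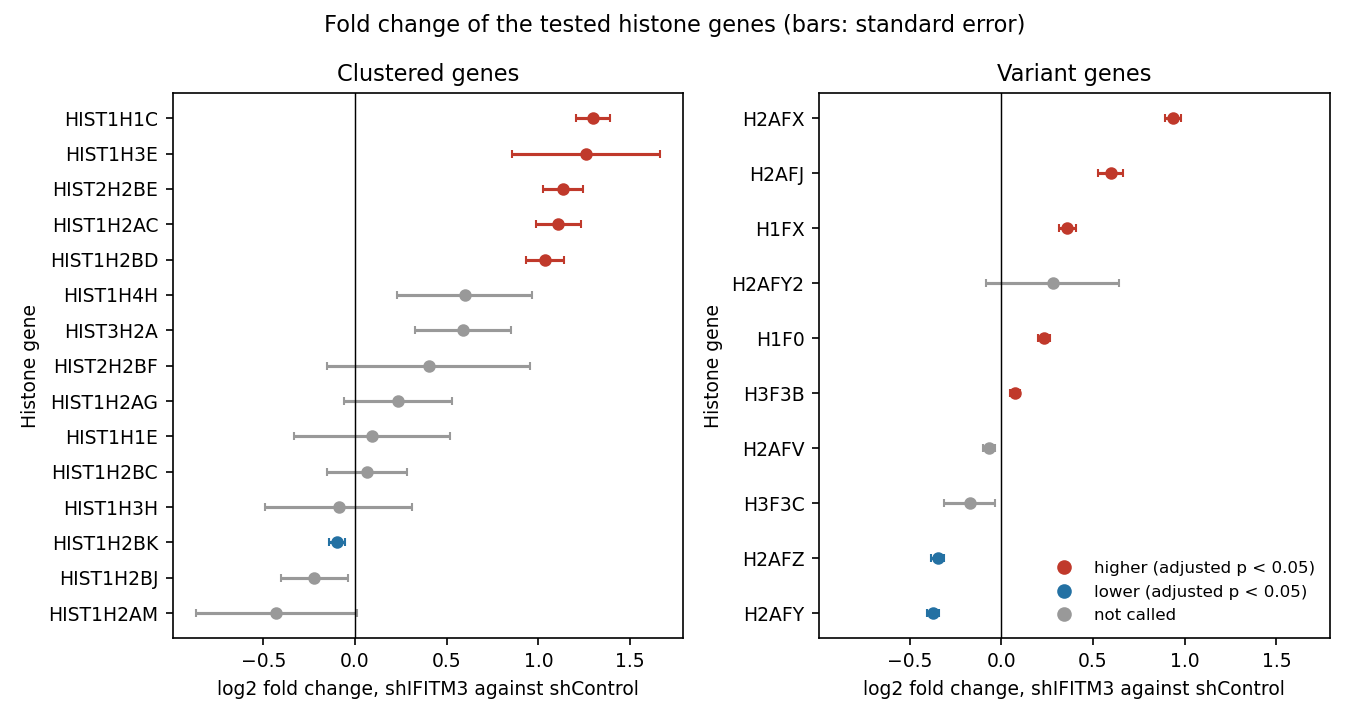
Log2 fold change of shIFITM3 against shControl, with standard errors as bars, for the 15 tested clustered genes (left) and the 10 tested variant genes (right). Red marks genes called higher, blue genes called lower and grey genes not called. HIST1H1C, HIST2H2BE, HIST1H2AC and HIST1H2BD lie between 1.03 and 1.30, and the variants span -0.37 to 0.94.

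Of the 25 tested members, 7 overlap an exon of another gene, 2 of them on the same strand, and 4 share at least 20% of their 75-base windows with other genes. How strand and reads with several matches were handled in counting is not given in those sources. In bulk samples, fewer cells that express a gene and less RNA per cell cannot be told apart.

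Many histone genes of the clusters, mostly an H2A with an H2B gene, stand head to head and share an upstream region. Of 12 head-to-head pairs of members with starts at most 500 bases apart, 2 had both genes tested and 6 had neither. In the first pair, HIST1H2AC was higher, with a log2 fold change of 1.11, while its neighbour HIST1H2BC had 2.41, 2.96 and 2.18 CPM in shIFITM3 samples, against 2.07, 2.70 and 2.26 CPM in shControl samples. HIST1H2BC overlapped between the groups, with 0.07 as the log2 fold change (SE 0.218, adjusted p = 0.811 by edgeR). The ratio of HIST1H2AC to HIST1H2BC counts was 4.72, 3.59 and 6.13 in shIFITM3 samples, against 2.89, 1.94 and 2.35 in shControl samples. The ratios did not overlap, at 4.81 ± 1.28 and 2.39 ± 0.476 (SD, n = 3 each). The two-sided exact permutation p was 0.1, the smallest that 3 against 3 samples can give. In the second pair, the ratio of HIST1H2AG to HIST1H2BJ was 0.557, 0.397 and 0.420 in shIFITM3 samples, against 0.370, 0.330 and 0.315 in shControl samples, also without overlap and with an exact permutation p of 0.1 before any adjustment for 2 pairs.

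The region between the RefSeq starts of HIST1H2BC and HIST1H2AC (chr6:26123927-26124171, plus strand, GRCh38.p14, 245 bases) is shown because the pair shares it and its genes differed in call. HIST1H2BC is read to the left and HIST1H2AC to the right. Capitals mark the CCAAT box, the TATAAA box and the octamer ATTTGCAT, each searched on both strands.
Between HIST1H2BC and HIST1H2AC: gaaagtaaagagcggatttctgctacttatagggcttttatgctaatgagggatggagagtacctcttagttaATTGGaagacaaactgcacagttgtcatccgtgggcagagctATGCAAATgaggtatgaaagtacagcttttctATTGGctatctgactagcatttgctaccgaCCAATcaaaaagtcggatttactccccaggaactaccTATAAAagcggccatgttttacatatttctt
The region holds 3 CCAAT matches, 1 TATAAA match and 1 octamer match, and the only exact TATAAA match lies on the HIST1H2AC side. Variants of these letters were not searched for, so a similar box on the HIST1H2BC side would not be marked. Whether these motifs bear on the difference in call was not tested. RefSeq promoters of 300 bases were searched on both strands. CCAAT occurred in 55 of 65 clustered genes (84.6%) and 9 of 12 variant genes, beside 35.7% of 27305 promoters. TATAAA occurred in 43 of 65 clustered genes (66.2%) and 4 of 12 variant genes, beside 11.95% of all. The octamer occurred in 26 of 65 clustered genes (40.0%) and 1 of 12 variant genes, beside 1.80% of all. Head-to-head neighbours can hold the same match, so these promoters are not all separate. HIST1H2BC is counted for TATAAA through the match on the HIST1H2AC side, and HIST1H3D and HIST1H2AD have the same window.

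In lists of genes for DNA replication, histone mRNA processing, histone chaperones and variant deposition, more genes were called lower than higher. In a list of 36 S-phase and replication genes, all tested, 27 were called lower and 3 higher, beside the 28.4% and 27.7% of all tested genes, with a median log2 fold change of -0.28. CCNA2, the S-phase cyclin, had 144, 143 and 146 CPM in shIFITM3 samples, against 223, 219.6 and 221 CPM in shControl samples, giving -0.62 as the log2 fold change (SE 0.0347, adjusted p = 2.32e-13 by edgeR). RRM1 and RRM2, subunits of the enzyme that makes deoxynucleotides, had log2 fold changes of -0.56 and -0.38, and thymidylate synthase (TYMS) had -0.61. MCM3, part of the replicative helicase, had -0.33 and POLD1, a DNA polymerase subunit, -0.49. These 6 were the list's smallest p values, and all were called lower with no overlap between the groups.

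Of 16 replication-coupled histone chaperones and carriers, all tested, 14 were called lower and none higher, beside 28.4% lower and 27.7% higher among all tested genes, with a median log2 fold change of -0.26. At an unadjusted p under 0.05, 15 of the 16 passed, beside 8460 of the 14018 tested genes, and DESeq2 and limma-voom also called none higher. IPO4, the importer of histones H3 and H4, had 60.5, 62.1 and 59.6 CPM in shIFITM3 samples, against 101, 100.04 and 98.9 CPM in shControl samples, giving -0.72 as the log2 fold change (SE 0.0436, adjusted p = 1.01e-12 by edgeR). NASP, which holds a reserve of soluble H3 and H4, had 216, 194 and 217 CPM in shIFITM3 samples, against 298, 295 and 283 CPM in shControl samples, and a log2 fold change of -0.48. The FACT subunits SUPT16H and SSRP1 had -0.42 and -0.33, the acetyltransferase of new H4 (HAT1) -0.30 and the histone-binding protein RBBP4 -0.31, all called lower.

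Of 19 genes for transcription, processing and decay of histone mRNA, all tested, 11 were called lower and 2 higher, beside 28.4% and 27.7% of all tested genes, with a median log2 fold change of -0.14. LSM11, a subunit of the U7 particle that cuts at the stem-loop, had 5.41, 5.65 and 4.85 CPM in shIFITM3 samples, against 9.29, 8.42 and 7.77 CPM in shControl samples, giving -0.67 as the log2 fold change (SE 0.129, adjusted p = 9.48e-05 by edgeR). ERI1, the exonuclease that trims the stem-loop end, had -0.56, the cleavage factor CSTF2 -0.33, the cap-binding subunit NCBP1 -0.30 and its partner SRRT -0.22. ZCCHC6, an enzyme that adds uridines to RNA ends, was higher, with 57.4, 53.3 and 61.5 CPM in shIFITM3 samples, against 43.8, 39.0 and 39.4 CPM in shControl samples. ZCCHC6 changed by 0.50 on the log2 scale (SE 0.0602, edgeR adjusted p = 1.57e-07).

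Of 20 genes for deposition and exchange of variant histones, all tested, 12 were called lower and 4 higher, against a background of 28.4% lower and 27.7% higher, with a median log2 fold change of -0.23. ANP32E, which removes H2A.Z from nucleosomes, had 149, 133 and 143 CPM in shIFITM3 samples, against 214, 212 and 224 CPM in shControl samples, giving -0.61 as the log2 fold change (SE 0.0413, adjusted p = 7.09e-12 by edgeR). RUVBL2, a shared subunit of the complexes that install H2A.Z, had -0.39. The centromere loading factors HJURP and MIS18A had -0.50 and -0.69, both called lower. UBN2, a subunit of the HIRA complex that deposits replacement H3, was higher, with 0.72 as the log2 fold change (SE 0.0638, adjusted p = 1.13e-09 by edgeR).

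**Figure D4:**
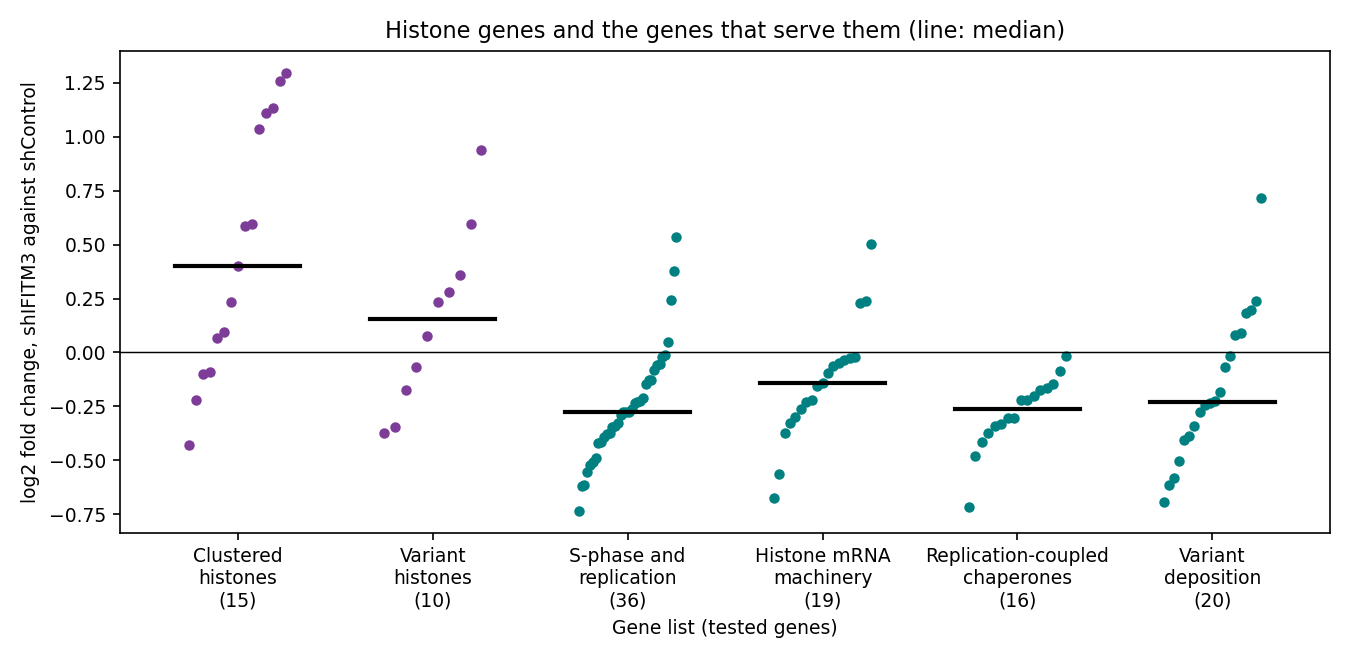
Log2 fold change of shIFITM3 against shControl for the tested histone genes (purple) and for 4 gene lists named on the axis (green). Each point is a gene, the number of tested genes stands under each list, and lines are medians. The medians are 0.40 and 0.15 for clustered and variant histones and -0.28, -0.14, -0.26 and -0.23 for the lists. The clustered median is the value of HIST2H2BF, which had few counts and was not called.

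RNAs that normally carry no poly(A) tail were counted because poly(A) selection removes most of them. Of 22 listed, all 6 tested were called higher, beside 27.7% of all tested genes, with a median log2 fold change of 0.91. Their summed level was 76.7, 43.6 and 33.2 CPM in shIFITM3 samples 1, 2 and 3, against 22.2, 36.0 and 20.3 CPM in shControl samples 1, 2 and 3. The groups overlapped, and shIFITM3 sample 1 was the highest. RN7SK, a regulator of transcription elongation, had 16.7, 7.57 and 7.70 CPM in shIFITM3 samples, against 4.19, 8.25 and 3.39 CPM in shControl samples. None of the 6 RNAs separated the groups, and 2 of them were called without shIFITM3 sample 1 and 3 without shControl sample 3. Without shIFITM3 sample 1 the log2 fold changes of the histone genes were 1.24 for HIST1H1C, 1.11 for HIST2H2BE, 1.13 for HIST1H2AC, 1.06 for HIST1H2BD and 0.92 for H2AFX. HIST1H3E was then at 0.89 and lost its call (edgeR adjusted p = 0.118). The part of these RNAs in the histone differences was not tested.

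**Figure D5:**
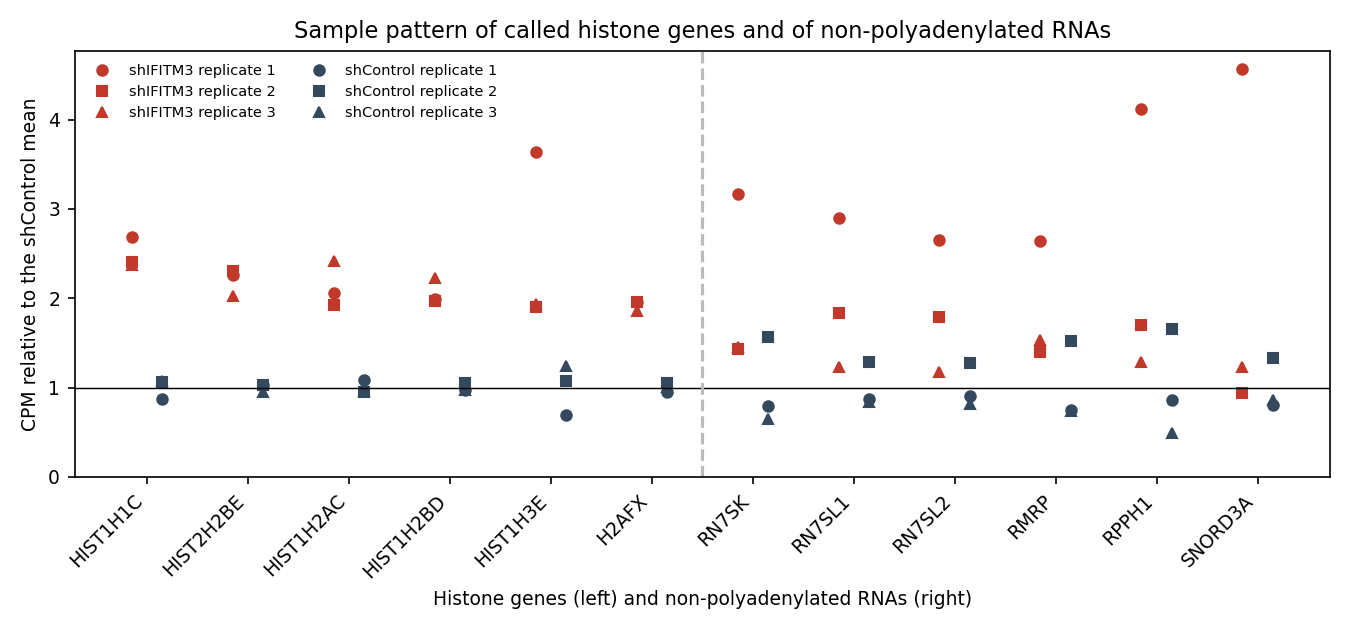
CPM of each sample divided by the mean of the shControl samples, for 6 histone genes called higher (left) and 6 RNAs without a poly(A) tail (right). Symbols give the replicate number, and shIFITM3 stands left of shControl. For HIST1H1C, HIST2H2BE, HIST1H2AC, HIST1H2BD and H2AFX the 3 shIFITM3 samples lie together. For HIST1H3E and for the RNAs on the right, shIFITM3 sample 1 stands apart.

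The labelled cell type was checked with 10 markers of lung adenocarcinoma epithelium. The 6 of smallest p, EPCAM, CDH1, KRT7, KRT8, KRT18 and EGFR, were abundant, from 114 CPM upwards in every sample. NKX2-1, NAPSA and SFTPB were too low to be tested. KRT19, the remaining marker, was not called, and its level is not given here. Of the 7 tested, EPCAM and EGFR were called higher and CDH1, KRT8 and KRT18 lower, and 1 was called higher when shIFITM3 sample 1, shIFITM3 sample 3 or shControl sample 2 was left out. Among all tested genes, 27.7% were called higher and 28.4% lower. Of 12 markers of fibroblasts, endothelium and leukocytes, 3 were tested, with CDH5 and COL1A1 called higher and PECAM1 lower, beside the same shares. The number called higher was 1 without shIFITM3 sample 3, shControl sample 2 or shControl sample 3. The summed level of the 12 was 13.4, 14.9 and 17.9 CPM in shIFITM3 samples, against 15.1, 12.9 and 12.8 CPM in shControl samples, and the fibroblast markers LUM and DCN had no count in any sample.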

How the data were processed

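RNA from PC-9 cells was sequenced after poly(A) selection, with 3 samples per group, and counts were deposited as raw whole numbers per gene symbol. The submitters' processing notes name featureCounts (Subread 2.0.6), HISAT2 2.2.1, SAMtools 1.20, fastp 0.23.4 and FastQC 0.12.1, and the build hg38. Annotation, strand setting and handling of multi-mapping reads are not given in these sources.

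Counts were analysed with edgeR 4.0.16 in R 4.3.3. Genes passing filterByExpr were scaled by TMM (factors 0.995 to 1.006), fitted on group and tested two-sided with the quasi-likelihood F test, adjusted by Benjamini-Hochberg over 14018 genes at 0.05. Of the symbols, 7251 had no count. SE is the size of the log2 fold change over the square root of its F statistic. CPM use TMM-scaled library sizes. p-values measure the spread between these samples, whose separate origin the labels state only as biological replicates. The script was tested on simulated data.

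Named genes were IFITM3, all tested variants, the 12 clustered genes of highest mean CPM and the 8 of smallest p, and up to 6 genes of smallest p per list. A gene that this rule takes is not reported here. Members and lists were chosen with earlier results of these data known. Stem-loops, gene coordinates, overlaps and 75-base windows come from GENCODE 29 (GRCh38, the assembly of hg38), and promoters from RefSeq GRCh38.p14. Alternatives were total-count, RLE or upper-quartile scaling, omitting the filter, a strict one of 50 counts in 3 samples, DESeq2 1.42.0, limma-voom 3.58.1, a replicate block, thinned libraries and each sample left out.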

Additional observations from a re-analysis of the deposited data

How the results depend on the processing

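The 15 alternatives gave 366 values for the 25 tested histone genes, of which 334 kept their direction and their side of the threshold, 17 lost a call, 7 gained one and 8 changed sign without a call. Sign changes concerned 4 genes that were not called, whose log2 fold changes with single samples left out were -0.291 to 0.00282 for H3F3C, -0.0665 to 0.210 for HIST1H2BC, -0.0517 to 0.569 for HIST1H1E and -0.271 to 0.141 for HIST1H3H, the last also at 0.142 with thinned libraries. The cause was not tested. Calls changed for HIST3H2A, H3F3B, HIST1H3E, HIST1H2BK and H2AFV, the last called only with upper-quartile scaling (edgeR adjusted p = 0.0355). The number of clustered genes called higher was 5, and 4 to 6 across the alternatives. The number called lower was 1, which is HIST1H2BK. It was 0 with RLE scaling, total-count scaling, no filter, the strict filter, DESeq2 and thinned libraries, and 0 to 1 when single samples were left out. Where leaving out a sample ended its call, the adjusted p was 0.0612 to 0.134. Variant genes called higher numbered 4 to 5, and variant genes called lower 2 to 3. Calls over all genes were 7124 to 8082. Other scalings moved the median of all genes by 0.0104 or less upward and by -0.0180 with upper-quartile scaling. The RNAs without a poly(A) tail called higher were 3 with DESeq2 and 3 with limma-voom. Same-numbered samples correlated by 0.00634 to 0.0330 in their deviations, so the numbers give no pairing. A replicate block gave 7870 calls over all genes, 6 clustered genes higher and 1 lower, and 5 variant genes higher and 2 lower. The 55 clustered genes under the filter were too low in counts for a statement on their direction.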

Other observations

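When the clustered genes of chromosome 6 (GRCh38) were split into blocks by position, those called higher lay in the block with most tested genes. This split was made after the values were seen, at gaps over 400000 bases, and is a description without a test. Across all tested genes, 27.7% were called higher and 28.4% lower. The block from 25726132 to 26285638 held 34 members, of which 7 were tested and 4 were called higher: HIST1H1C, HIST1H2AC, HIST1H2BD and HIST1H3E. The block from 27125897 to 27147515 held 5 members, of which HIST1H2BJ, HIST1H2AG and HIST1H2BK were tested, with HIST1H2BK called lower and the others not called. The block from 27807444 to 27893843 held 16 members, of which HIST1H3H and HIST1H2AM were tested and neither was called.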
